A study of Homo sapiens with 6 samples.

Results

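The genes described here are YAP1, WWTR1 (which encodes TAZ), the transcription factor genes TEAD1, TEAD2, TEAD3 and TEAD4, and 4 genes known as targets of these proteins, CCN1, ANKRD1, AMOTL2 and LATS2. They were taken by gene symbol from an Affymetrix Clariom S human array table. Of the 10 listed genes 9 were found, with 1 probe set each, among 17687 genes with a symbol, and AMOTL2 was not analysed here. Total RNA came from 3 CD109-KO clones of A431 (clones 26, 32 and 180) and from 3 parental A431 samples, labelled wild type (samples 5, 2 and 6). A431 is an established human cell line from an epidermoid (squamous cell) carcinoma and carries an amplified EGFR gene. Each clone was grown from a single sorted CD109-negative cell after transfection with a Cas9-GFP plasmid and a guide against exon 1 or exon 2 of CD109, which encodes a GPI-anchored surface protein. The sources name no control clone that went through transfection and single-cell sorting, so that loss of CD109 and clonal selection cannot be told apart. The study states a biological n of 3 and technical triplicates for this comparison. The parental labels do not say whether the numbers mark separate cultures. A p-value thus covers only the spread among these samples, which may be technical.

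YAP and TAZ are transcriptional coactivators that do not bind DNA themselves and act mainly through the TEAD factors. In the Hippo pathway the kinases MST1 and MST2 (genes STK4 and STK3), with the scaffold SAV1, activate LATS1 and LATS2, which with MOB1 phosphorylate YAP and TAZ and so keep them in the cytoplasm or lead to their degradation. Cell density, junctions and tension feed into this pathway, and YAP and TAZ are active in many squamous carcinomas. The arrays measured mRNA only, so that phosphorylation and nuclear location of YAP and TAZ, the steps at which the pathway acts, were not measured. By the study's methods RNA was taken from monolayers before they were confluent.

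The arrays differed widely between the groups, which sets the scale for every gene below. Values are the authors' normalized log2 signals, and a change counts as called here where its limma adjusted p (Benjamini-Hochberg) was under 0.01 and its fold change at least 2. By this rule 63.1% of all 17687 genes were called, 36.2% as higher and 26.8% as lower in CD109-KO cells, and for 80.7% of genes the values of the groups did not overlap. The median log2 fold change of all genes was 0.51. As background served, in each array, the level under which 95% of probe sets for olfactory receptors lay, genes that these cells are not known to use. It averaged 5.59 in the CD109-KO clones and 4.14 in the parental samples on the log2 scale. Above it lay 7841 to 8691 genes in CD109-KO arrays and 12106 to 12297 in parental arrays. Log2 signals correlated at 0.519 to 0.600 between the groups and at 0.958 or more within them. CD109 itself, which has to be low if the labels hold, had a log2 signal of 3.64, 3.45 and 3.62 in knockout clones 26, 32 and 180, against 7.57, 7.75 and 8.13 in parental samples 5, 2 and 6. All 3 clones lay under their background, and the place of the probes within the gene is not known here. Of the 7 measured squamous markers (KRT5, KRT14, EGFR, SFN, EPCAM, CDH1 and DSP), 7 were lower in CD109-KO arrays, with a mean log2 signal of 6.01 to 6.25 in the CD109-KO clones and of 10.22 to 10.52 in the parental samples. EPCAM and CDH1 lay under the background in all 3 clones. EGFR had 5.45, 5.48 and 6.14 in knockout clones 26, 32 and 180, above the background in 1 of 3. In parental samples 5, 2 and 6 it had 11.32, 11.64 and 11.26. Its log2 fold change of -5.72 was larger in size than that of 99.8% of genes. Of 13 measured fibroblast markers 12 were higher and 1 was lower, with a mean of 6.82 to 6.86 in the CD109-KO clones and of 4.08 to 4.55 in the parental samples. Of the 12, 8 lay above the background in all 3 clones, while COL6A3, PDGFRA and POSTN lay under it in all 6 arrays. Of the markers of smooth muscle 6 of 7 were higher (4 of them above the background in all clones), of endothelium 4 of 8 (2 of them) and of blood cells 4 of 6 (1 of them), where CD68 was lower (-4.16). PECAM1, TEK and PTPRC lay under the background in all 6 arrays. Of 349 olfactory receptor genes 39.5% were called higher and 0 lower by limma. The part of these differences in the results below was not tested, and in RNA of a whole culture fewer cells of a type and less RNA per cell cannot be told apart. Parental sample 6 stood apart in the poly-A spike-in controls, with a mean log2 signal of 6.11 against 8.01 to 9.08 in the other 5 arrays.

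Among the 9 measured genes, YAP1 and TEAD1 were lower and CCN1 and TEAD2 were higher in CD109-KO cells. These 4 of 9 (44.4%) stand beside 63.1% of all genes. TEAD2 lay near the background in both groups. YAP1 fell to a level under the background in each clone, at least 3.45-fold on the deposited scaling. The other 5 did not pass, with WWTR1 lower in each clone than in any parental sample, TEAD3, ANKRD1 and LATS2 at log2 fold changes of 0.88 to 0.89, and TEAD4 at 0.14. Without parental sample 6 the 4 calls held, at -2.43 for YAP1, -1.22 for TEAD1, 2.25 for CCN1 and 1.44 for TEAD2. The values of the groups did not overlap for 8 of the 9, against 80.7% of all genes. CD109-KO lay above parental for 5 of the 9, against 48.9% of all genes, and below it for 3 of the 9, against 31.8% of all genes.

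YAP1, which encodes the coactivator YAP, lies on chromosome 11 of GRCh38.p14 from 102110447 to 102233424. It had log2 signals of 4.43, 5.37 and 5.11 in knockout clones 26, 32 and 180, against 7.12, 7.69 and 7.32 in parental samples 5, 2 and 6. Every clone lay well under every parental sample, and clone 26 was the lowest of the 3 clones. The mean was 4.97 ± 0.49 in the CD109-KO clones and 7.37 ± 0.29 in the parental samples (SD, n = 3 each), a log2 fold change of -2.40 (SE 0.28, limma adjusted p = 1.95e-05). YAP1 exceeded the background in all 3 parental samples and in 0 of 3 clones. Set against the higher of the background and its own value in each CD109-KO array, it was at least 3.45-fold lower. This bound holds on the deposited scaling only, since YAP1 was at -0.33 after centring on core genes.

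WWTR1 encodes TAZ, the paralogue of YAP, and lies on chromosome 3 from 149517235 to 149724788. It had 6.44, 5.19 and 5.84 in knockout clones 26, 32 and 180, against 6.54, 6.92 and 6.78 in parental samples 5, 2 and 6. The clones spread most widely for this gene among the 9, with clone 26 next to the lowest parental sample and clone 32 far under it. The mean was 5.82 ± 0.62 in the CD109-KO clones and 6.75 ± 0.19 in the parental samples (SD, n = 3 each). The log2 fold change of -0.92 (95% confidence interval -1.59 to -0.25) did not pass (limma adjusted p = 0.0159). Without clone 26 it passed, at -1.23 (limma adjusted p = 0.00318), and without clone 32 it was -0.61 (limma adjusted p = 0.08). WWTR1 was above the background in 2 of 3 CD109-KO arrays and in all parental arrays.

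The 4 TEAD genes, which encode the DNA-binding partners of YAP and TAZ, did not move together. TEAD1 (chromosome 11 from 12674421 to 12944737) had 5.99, 6.03 and 5.87 in knockout clones 26, 32 and 180, against 7.46, 6.90 and 7.13 in parental samples 5, 2 and 6. The clones were close to each other, all above the background, and all under the parental samples. Its log2 fold change was -1.20 (SE 0.23, limma adjusted p = 0.00057), or 2.30-fold lower, and under a repeated quantile normalization it was -0.99, short of a fold change of 2. TEAD2 (chromosome 19 from 49340595 to 49362416) went the other way, with 5.58, 5.93 and 5.44 in knockout clones 26, 32 and 180, against 4.26, 4.17 and 3.99 in parental samples 5, 2 and 6. It rose by 1.51 on the log2 scale (SE 0.23, limma adjusted p = 0.000109). This rise took place near the background, which TEAD2 exceeded in 2 of 3 CD109-KO arrays and in 1 of 3 parental arrays. Its mean was 5.65 in the CD109-KO clones and 4.14 in the parental samples, beside mean backgrounds of 5.59 and 4.14. The background thus differed between the groups by about as much as TEAD2 did, and its part in the rise was not tested. The median log2 fold change of the 349 olfactory receptor genes was 0.83.

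TEAD3 (chromosome 6 from 35473597 to 35497079) had 7.62, 7.45 and 7.56 in knockout clones 26, 32 and 180, against 6.69, 7.06 and 6.25 in parental samples 5, 2 and 6. It was above the background in all 6 arrays, and each clone was higher than each parental sample. Its log2 fold change of 0.88 (95% confidence interval 0.33 to 1.43, limma adjusted p = 0.00737) was short of a fold change of 2, and it passed without parental sample 2 (1.08) and under repeated quantile normalization (1.36). TEAD4 (chromosome 12 from 2959397 to 3040676) had 5.50, 5.49 and 5.37 in knockout clones 26, 32 and 180, against 5.09, 5.29 and 5.55 in parental samples 5, 2 and 6. The groups overlapped, and the log2 fold change of 0.14 (95% confidence interval -0.34 to 0.63) did not pass (limma adjusted p = 0.557). TEAD4 lay just under the higher background of the CD109-KO arrays in all 3 clones and above the background in all 3 parental arrays.

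**Figure D1:**
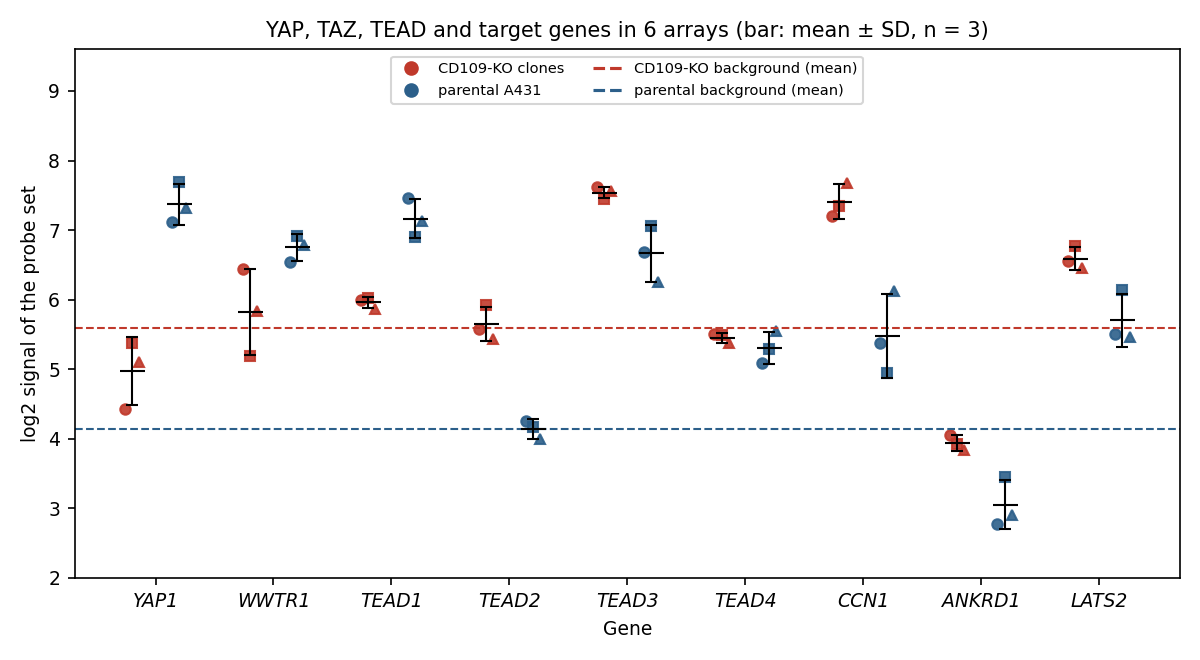
Log2 signal (vertical axis) of the 9 measured genes (horizontal axis) in CD109-KO clones 26, 32 and 180 (red circle, square and triangle) and parental samples 5, 2 and 6 (blue circle, square and triangle), with the mean ± SD of each group (n = 3) and the mean background of each group as a dashed line. YAP1 lies under the CD109-KO background of 5.59 in every clone, TEAD4 overlaps between the groups, and ANKRD1 lies under the background in all 6 arrays.

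Of the 3 measured target genes, CCN1 rose in CD109-KO cells, while LATS2 and ANKRD1 did not pass. CCN1 encodes a secreted matricellular protein of the CCN family and lies on chromosome 1 from 85580761 to 85583950. It had log2 signals of 7.20, 7.34 and 7.68 in knockout clones 26, 32 and 180, against 5.37, 4.95 and 6.12 in parental samples 5, 2 and 6. All arrays were above their background, and the lowest clone lay above the highest parental sample, which was sample 6. The mean was 7.41 ± 0.25 in the CD109-KO clones and 5.48 ± 0.60 in the parental samples (SD, n = 3 each), a log2 fold change of 1.93 (SE 0.30, limma adjusted p = 0.000147), or 3.80-fold. CCN1 did not pass by the methods' t-test (its own Benjamini-Hochberg adjusted value was 0.0135).

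LATS2, which encodes a kinase of the Hippo cascade and is itself a target of YAP and TAZ, lies on chromosome 13 from 20973036 to 21061586. It had 6.56, 6.77 and 6.45 in knockout clones 26, 32 and 180, against 5.50, 6.14 and 5.46 in parental samples 5, 2 and 6, all above the background. Each clone exceeded each parental sample, with parental sample 2 the nearest. The log2 fold change of 0.89 (95% confidence interval 0.35 to 1.44, limma adjusted p = 0.00656) was short of a fold change of 2, and it passed without parental sample 2 (1.11) and under repeated quantile normalization (1.02). ANKRD1, a gene of an ankyrin repeat protein of striated muscle that is widely used to read YAP activity, lies on chromosome 10 from 90912096 to 90921087. It had 4.06, 3.92 and 3.84 in knockout clones 26, 32 and 180, against 2.78, 3.45 and 2.91 in parental samples 5, 2 and 6. These values lay under the background in all 6 arrays, so that no fold is given. The difference of 0.89 on the log2 signal scale (limma adjusted p = 0.00551) stands beside a median of 0.83 for 349 olfactory receptor genes, which were likewise dim. Without parental sample 2 ANKRD1 passed, at 1.09, and under repeated quantile normalization it was at 0.32 (limma adjusted p = 0.245).

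How these changes read depended on the scaling of the arrays. Centring each array on the mean of 36 measured genes that every cell needs added 2.07 to the log2 fold change of every gene, since those genes averaged 6.35 to 6.52 in the clones and 8.12 to 8.81 in the parental samples. YAP1 was then at -0.33 (limma adjusted p = 0.384), WWTR1 was called higher (1.15, limma adjusted p = 0.00319) and TEAD1 turned to a positive sign (0.87), while CCN1 (4.0) and TEAD2 (3.58) stayed higher. Centring on the mean of 23 antigenomic background controls, which were brighter in CD109-KO arrays, shifted every gene by -0.98 instead, and centring on 4 hybridization controls by -0.84. YAP1 (-3.38 and -3.24) and TEAD1 (-2.18 and -2.04) were then lower, and WWTR1 was called lower (-1.90 and -1.76), so that it was called in opposite directions by scaling. CCN1 (0.95 and 1.09) and TEAD2 (0.53 and 0.67) no longer passed, and TEAD3, ANKRD1 and LATS2 lay between -0.10 and 0.06. The median of the same gene and antigenomic sets in place of the mean, chosen after the data were seen, gave shifts of 1.96 and -1.21. YAP1 was at -0.44 and -3.61, CCN1 at 3.89 and 0.72, and TEAD2 at 3.47 and 0.30. YAP1 thus kept a negative sign and CCN1 and TEAD2 a positive sign under all 6 other scalings, but none of these 3 kept its call under all of them.

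**Figure D2:**
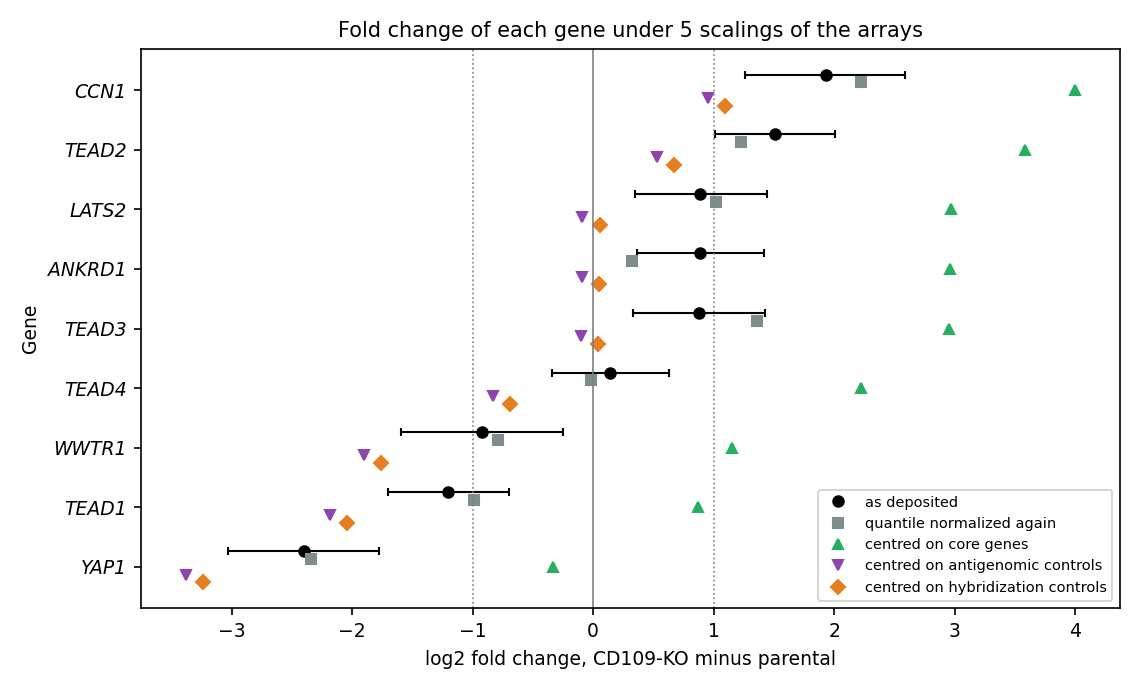
Log2 fold change, CD109-KO minus parental (horizontal axis), of the 9 measured genes (vertical axis) under 5 scalings of the arrays, with the 95% confidence interval of the deposited scaling as a bar and dotted lines at a fold change of 2. The order of the genes is alike in each scaling that shifts whole arrays, from YAP1 to CCN1, and the zero point moves across them.

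A difference between genes within an array does not change when the whole array is shifted, and 4 such differences are given as a description, chosen after the values were seen. Such a difference does depend on the spread of an array's signals, which was narrower in the clones. The interquartile range was 2.44 to 2.49 in CD109-KO arrays and 3.25 to 3.51 in parental arrays. The part of this spread in the 4 differences was not tested. Only the change of the 4 differences between groups is read, since the signals of different probe sets share no common scale. CCN1 minus YAP1 was 2.77, 1.96 and 2.57 in knockout clones 26, 32 and 180, against -1.75, -2.74 and -1.19 in parental samples 5, 2 and 6 on the log2 scale. Each clone lay above each parental sample, for CCN2 minus YAP1 too, but YAP1 was under the background in the clones, so that the size of these differences is not read. For TEAD2 minus TEAD1 the mean was -0.31 ± 0.19 in the CD109-KO clones and -3.02 ± 0.26 in the parental samples (SD, n = 3 each), with TEAD2 under the background in 1 of 3 clones and in 2 of 3 parental samples. TEAD3 minus TEAD1, with both genes above the background in all 6 arrays, averaged 1.58 ± 0.14 in the CD109-KO clones and -0.50 ± 0.58 in the parental samples (SD, n = 3 each), a difference of 2.08.

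**Figure D3:**
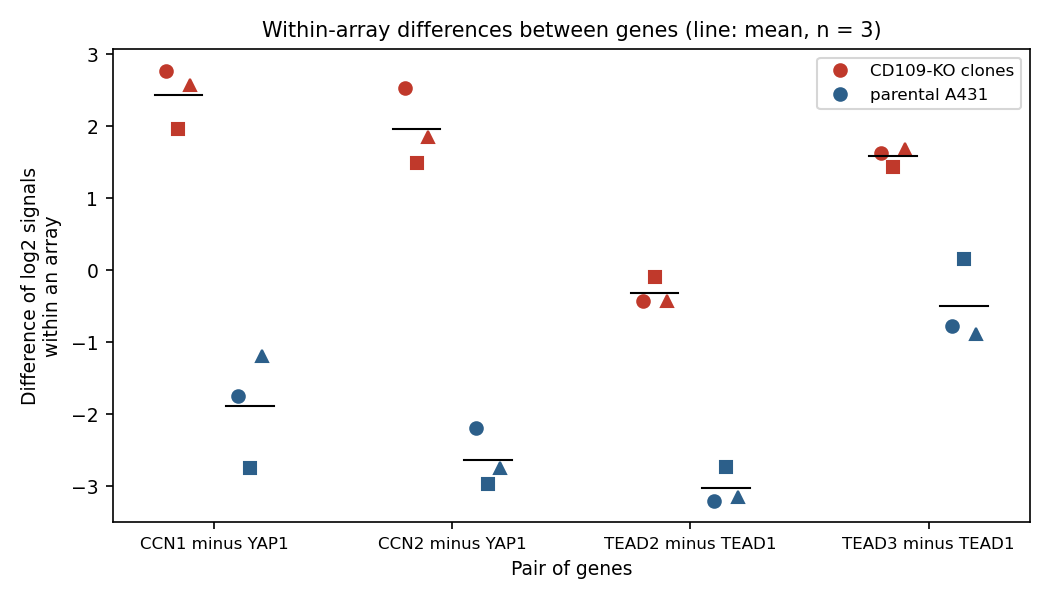
Difference of log2 signals between 2 genes within an array (vertical axis) for 4 pairs of genes (horizontal axis) in CD109-KO clones 26, 32 and 180 (red circle, square and triangle) and parental samples 5, 2 and 6 (blue circle, square and triangle), with the mean of each group as a line. In each pair all 3 clones lie above all 3 parental samples, and for TEAD3 minus TEAD1 the mean is 1.58 in the clones and -0.50 in the parental samples.

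The kinase cassette that restrains YAP and TAZ was measured, together with NF2, by 7 further genes. Of these, 4 were lower in CD109-KO cells (57.1%, against 26.8% of all genes) and 3 did not pass, with a median log2 fold change of -1.31 against 0.51 over all genes. All 7 lay above the background in every parental sample, and falls were more frequent among such genes. Of the 11370 genes above the background in every parental sample, 4602 were called lower. STK3, the kinase MST2, had 3.59, 3.15 and 3.40 in knockout clones 26, 32 and 180, against 7.99, 7.69 and 8.0 in parental samples 5, 2 and 6. LATS1, the paralogue of LATS2, had 3.63, 4.35 and 3.43 in the same clones, against 7.81, 7.61 and 8.0 in the same parental samples. Both kinase genes lay under the background in every clone and were at least 4.95-fold (STK3) and 4.65-fold (LATS1) lower, with log2 fold changes of -4.51 (limma adjusted p = 7.44e-08) and -4.0 (limma adjusted p = 4.15e-07). The log2 fold change was -3.47 for MOB1A, which encodes a LATS activator, and -1.31 for the scaffold gene SAV1. STK3, LATS1 and MOB1A were called lower under each scaling, while SAV1 was at 0.76 after centring on the core genes. STK4, the kinase MST1, averaged 7.24 ± 0.16 in the CD109-KO clones and 7.23 ± 0.41 in the parental samples (SD, n = 3 each), a log2 fold change of 0.01 (95% confidence interval -0.55 to 0.57). The others of the 7 that did not pass were MOB1B (0.32) and NF2 (-0.28), the gene of the tumour suppressor merlin, which is counted here with the cassette. LATS1 and LATS2 thus differed in their values, the first under the background in all clones and the second above it in all arrays.

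Upstream of the cassette, 21 genes were measured, of which 9 were lower, 5 were higher and 7 did not pass. These are 42.9% lower and 23.8% higher, against 26.8% and 36.2% of all genes. MAP4K5, one of the MAP4K kinases that can phosphorylate LATS in place of MST, had 3.72, 2.77 and 2.53 in knockout clones 26, 32 and 180, against 8.10, 8.0 and 8.85 in parental samples 5, 2 and 6. Measured against the clones' background it was at least 6.65-fold lower, with a log2 fold change of -5.31 (limma adjusted p = 2.72e-07). MAP4K4 (-1.92, at least 2.72-fold lower) and the TAO kinase gene TAOK3 (-2.56, at least 1.35-fold lower) were also under the background in each clone. After centring on core genes MAP4K4 was at 0.15 and TAOK3 at -0.49 and neither was called, so that these bounds hold on the deposited scaling only. AJUBA, whose LIM-domain protein binds and inhibits LATS kinases, fell by 2.91 and stayed above the background in every clone. It was at -0.84 on core genes and was not called there. The STRIPAK complex genes SLMAP (-2.43) and FGFR1OP2 (-2.39) were called lower and lay under the background in all clones. Their parental means were under the mean background of the clones (5.59), so that no bound on their fall can be given. SLMAP was at -0.36 and FGFR1OP2 at -0.32 after centring on core genes, and neither was called. Among those that rose were WTIP (1.93), a gene of the Ajuba family, and TAOK2 (1.12), both above the background in each of the clones, and RASSF1 (1.14), above it in 2 of 3. MAP4K1 (1.91) and DCHS1 (1.80) were called higher but lay under the background in all 6 arrays. TAOK2 did not pass without CD109-KO clone 180 (0.94) or parental sample 2 (0.98). RASSF1 did not pass without clone 26 (0.92), clone 180 (1.02), parental sample 2 (1.02) or parental sample 6 (1.12), and none of the 5 rises passed after centring on antigenomic controls. FAT4 (0.87), WWC3 (-0.99), WWC2 (0.56) and SIK2 (-0.46) did not pass. Over the cassette and its upstream genes together, 13 of 28 were lower (46.4%, against 26.8% of all genes) and 5 were higher (17.9%, against 36.2%). All 13 lay above the background in every parental sample, as did 23 of the 28. Of all 11370 genes above it there, 4602 were called lower. The 28 include genes that promote the cascade and genes that inhibit it, such as AJUBA, so that their counts give the pathway no single direction.

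Of 10 measured genes whose proteins bind YAP, TAZ or TEAD, 3 were higher, 3 were lower and 4 did not pass (30% each way, against 36.2% higher and 26.8% lower of all genes). The vestigial-like genes, which encode TEAD cofactors that compete with YAP and TAZ, moved in different directions. VGLL1 had 4.33, 4.56 and 4.83 in knockout clones 26, 32 and 180, against 8.85, 8.10 and 9.38 in parental samples 5, 2 and 6, under the background in each clone and at least 9.13-fold lower (log2 fold change -4.20, limma adjusted p = 7.58e-07). VGLL3 had 8.33, 8.76 and 9.16 in the same clones, against 6.22, 6.61 and 6.55 in the same parental samples, a rise of 2.29 (limma adjusted p = 1.55e-05). VGLL1 was called lower and VGLL3 higher under each scaling. VGLL2 rose by 1.20, above the background in 1 of 3 CD109-KO arrays, but did not pass without parental sample 5 (0.97), under repeated quantile normalization (0.85), on antigenomic controls (0.22) or by the methods' t-test. VGLL4 did not pass (0.60, limma adjusted p = 0.0246). RUNX1, a transcription factor that binds YAP, fell by 2.92, and AMOTL1, a gene of the angiomotin family whose proteins hold YAP at junctions, fell by 1.38. On core genes RUNX1 was at -0.85 and AMOTL1 at 0.69, and neither was called. The chromatin remodeller gene ARID1A rose by 1.10 but did not pass when any array other than parental sample 5 was left out (0.74 to 1.20). SMAD3 (-0.75), TP73 (0.83) and RUNX2 (-0.43) did not pass.

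Of 23 further genes often used as YAP and TAZ targets, 9 were higher, 6 were lower and 8 did not pass in CD109-KO cells (39.1% higher and 26.1% lower, against 36.2% and 26.8% of all genes). CCN2, the CCN family gene most used beside CCN1, had 6.96, 6.86 and 6.96 in knockout clones 26, 32 and 180, against 4.92, 4.72 and 4.56 in parental samples 5, 2 and 6. Every array was above its background, the groups lay far apart, and the rise was 2.19 (SE 0.22, limma adjusted p = 5.57e-06). THBS1, which encodes thrombospondin 1, had 10.82, 10.94 and 11.14 in knockout clones 26, 32 and 180, against 8.84, 8.09 and 8.40 in parental samples 5, 2 and 6, a rise of 2.53. ARHGEF17 rose by 2.63, RBMS3 by 2.17, FGF1 by 2.07 and TAGLN, which is also among the smooth muscle markers, by 2.05. RBMS3 and FGF1 were above the background in 2 of 3 clones, and RBMS3 and TAGLN did not pass by the methods' t-test. Of the 9 higher genes 6 lay above the background in all 3 clones, and 1 lay under it in all 6 arrays. In the other direction IGFBP3, which encodes an insulin-like growth factor binding protein, had 7.04, 6.72 and 6.53 in knockout clones 26, 32 and 180, against 12.17, 12.54 and 12.31 in parental samples 5, 2 and 6. Its log2 fold change of -5.58 (limma adjusted p = 5.43e-08) was the largest among the 23. Lower too were the membrane repair gene MYOF (-4.32), DOCK5 (-2.58), ARHGAP29 (-2.45), the tissue factor gene F3 (-1.94) and GADD45A (-1.48). F3 (-0.96) and GADD45A (-0.61) did not pass under repeated quantile normalization, which left 4 lower calls. DOCK5 (-0.51) and ARHGAP29 (-0.38) were not called after centring on core genes. AXL (-0.80), CRIM1 (0.71), CDC42EP3 (-0.54) and DLC1 (0.48) did not pass. The target genes thus split, with the CCN genes and THBS1 on the higher side and IGFBP3 and MYOF on the lower, and their median log2 fold change of 0.45 lay close to the 0.51 of all genes. THBS1 was called higher and IGFBP3 and MYOF lower under each scaling. CCN2 was called higher too, except after centring on the median of the antigenomic controls (0.98).

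**Figure D4:**
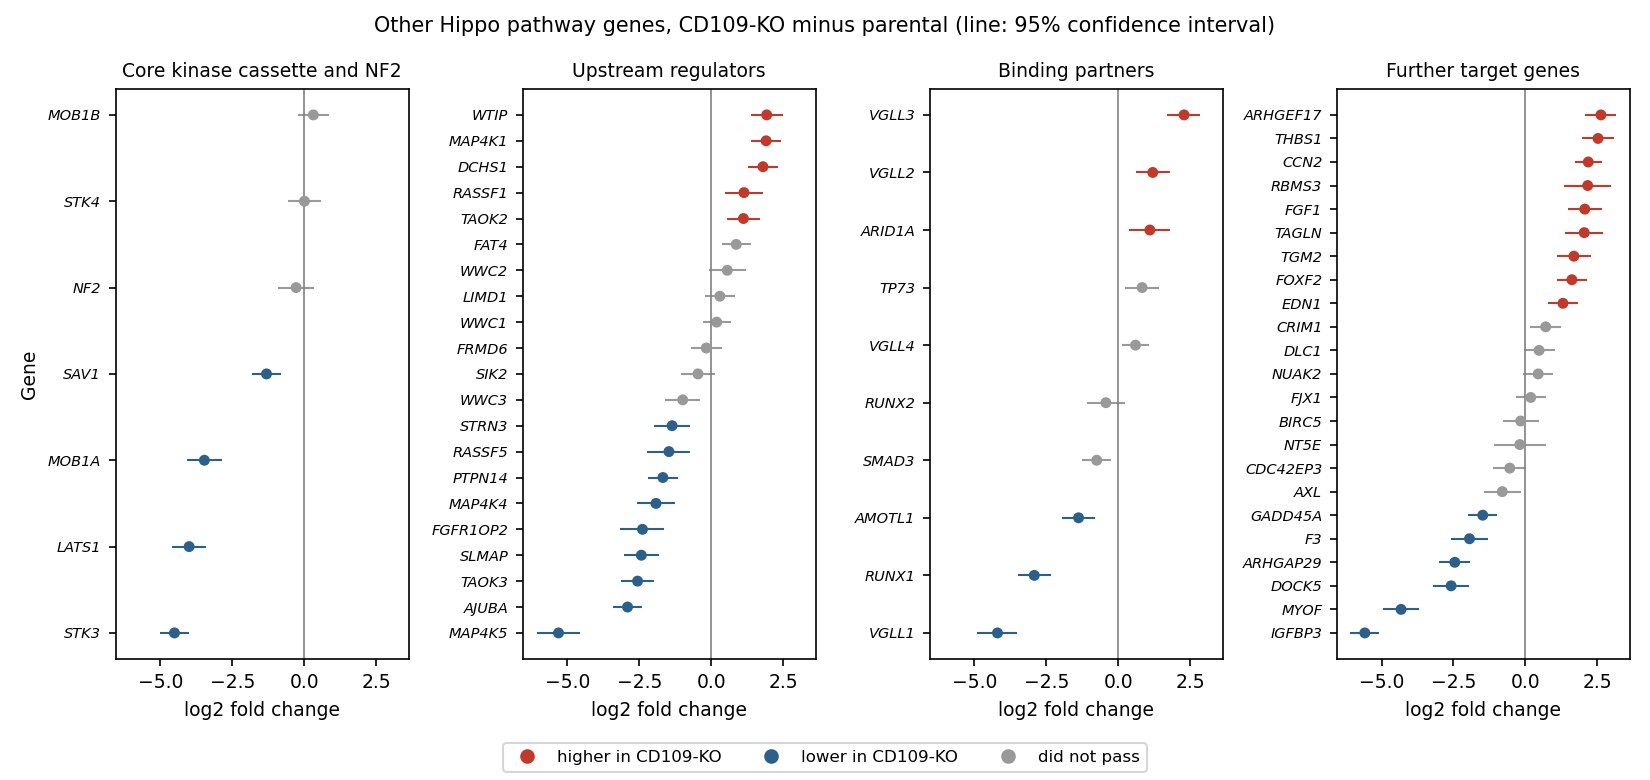
Log2 fold change, CD109-KO minus parental (horizontal axis), with its 95% confidence interval for the measured genes (vertical axis) of the core cassette with NF2, the upstream regulators, the binding partners and the further targets. Red marks genes called higher in CD109-KO cells, blue those called lower and grey those that did not pass; STK3 and LATS1 lie at the low end of the cassette and IGFBP3 and ARHGEF17 at the ends of the targets.

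Promoter sequences are shown for genes that hold the motif GGAATG, which TEAD factors bind. Sequences are from RefSeq on GRCh38.p14, in windows of 300 bases that end 50 bases after the start of the transcript. The motif was searched on both strands (GGAATG or its complement CATTCC), and 14.0% of 35116 windows held it. Of the 10 listed genes 7 had windows, while TEAD1, TEAD4 and CCN1 had none. The motif occurred in the windows of YAP1, ANKRD1, AMOTL2 and LATS2. The first base of the motif lay 162 bases before the start in YAP1 and 220 and 128 bases before it in ANKRD1. In LATS2 the only copy began after the start, at base 10 of the transcript. In the windows of WWTR1, TEAD2 and TEAD3 these letters do not occur. They are also absent from those of the lower targets IGFBP3, MYOF, F3 and ARHGAP29, which are not shown. CCN2 held 3 copies, beginning 169, 104 and 95 bases before the start, where 0.128% of all windows hold 3 or more, and THBS1 held 1, beginning 46 bases before it. The 250 bases before the start follow, 5′ to 3′ on the strand of the gene, with the motif in capitals. ANKRD1 is at chr10:90921088-90921337 (minus strand), YAP1 at chr11:102110197-102110446 (plus strand), CCN2 at chr6:131951373-131951622 (minus strand) and THBS1 at chr15:39580829-39581078 (plus strand).
ANKRD1: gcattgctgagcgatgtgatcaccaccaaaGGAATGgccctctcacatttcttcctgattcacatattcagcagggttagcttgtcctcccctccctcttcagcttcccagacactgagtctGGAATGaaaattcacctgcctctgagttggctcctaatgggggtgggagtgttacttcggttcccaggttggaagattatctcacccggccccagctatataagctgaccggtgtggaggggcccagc
YAP1: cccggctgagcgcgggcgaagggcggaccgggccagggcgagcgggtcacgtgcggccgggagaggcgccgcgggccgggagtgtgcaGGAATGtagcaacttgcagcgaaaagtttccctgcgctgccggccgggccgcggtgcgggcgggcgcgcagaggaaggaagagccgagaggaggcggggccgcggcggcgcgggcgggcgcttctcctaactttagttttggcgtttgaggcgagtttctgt
CCN2: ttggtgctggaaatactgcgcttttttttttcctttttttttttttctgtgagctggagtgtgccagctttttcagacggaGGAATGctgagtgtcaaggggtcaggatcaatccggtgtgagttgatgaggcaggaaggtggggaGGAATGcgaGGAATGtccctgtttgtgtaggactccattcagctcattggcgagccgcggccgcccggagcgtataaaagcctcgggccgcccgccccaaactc
THBS1: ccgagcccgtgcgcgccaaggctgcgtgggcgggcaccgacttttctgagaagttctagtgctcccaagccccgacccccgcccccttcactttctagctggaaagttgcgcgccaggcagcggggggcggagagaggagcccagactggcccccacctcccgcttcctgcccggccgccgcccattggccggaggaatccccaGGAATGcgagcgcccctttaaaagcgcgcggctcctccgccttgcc

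A motif match is a description and not a binding site. Every copy shown, in all of the printed genes, lies on the strand of the gene. Of these genes CCN2 and THBS1 were higher in CD109-KO cells, whereas YAP1 was lower and ANKRD1 was under the background. Over the measured target genes with a window, counting a gene where any of its windows held the motif, it occurred in 5 of 6 called higher, in 0 of 4 called lower and in 4 of 7 that did not pass. The higher genes CCN1, ARHGEF17, TGM2 and TAGLN and the lower genes GADD45A and DOCK5 had no window and are not counted. EDN1 and FGF1, both higher, have several windows, of which only some held the motif. ARHGAP29, which was lower, also has several, and none held it. Over all tested genes with a window it occurred in 16.7% of those called higher, 14.6% of those called lower and 15.3% of the others. The target genes were listed for what is known of them, which includes such motifs, and no test was made of these counts.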

How the data were processed

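RNA from each of the 3 clones and 3 parental samples had been hybridized to its own Clariom S human array. The authors deposited a log2 signal for each of 24351 probe sets, made with Affymetrix Gene Expression Console (pre-processing, background correction, normalization). Transcriptome Analysis Console and hg38 come from the submitters' processing notes. Of the algorithm behind the normalization no name is given in the sources used here. No further centring was applied. Left out were 2903 control probe sets. Of the 21448 for genes, 17709 carry a symbol (all found in RefSeq by Entrez ID, 0 changed) and 3739 are unnamed here. For 20 genes with several probe sets the brightest by mean over the 6 arrays was taken, which gives 17687 genes. Coordinates and promoters are those of RefSeq on GRCh38.p14.

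Differences are CD109-KO minus parental from limma 3.58.1 in R 4.3.3 (lmFit, eBayes, default prior), Benjamini-Hochberg adjusted over the gene probe sets and called at the study's thresholds. The study's own list at these thresholds, from Transcriptome Analysis Console, was much smaller and held more lower than higher genes. Here 6410 genes were higher and 4746 lower, and the reason for this difference was not tested. The limma fit was tested on simulated data. For a gene under the background in a whole group and above it in the whole other group, the fold is a lower bound, computed from the background or, where it was higher, the signal itself in each dim array. Each such bound holds on the deposited scaling only. The genes, the lists, the tests and the rule for naming genes were chosen with earlier results of these data known, and no p was adjusted over a list alone. The rule named all listed genes, CD109, CCN2, NF2, AXL and STK4, and from each pathway list, by size, up to 6 called rises, 6 called falls and 4 that did not pass. Alternatives were another prior (trend, robust), the methods' t-test (from their general statistics, not their array section), a second quantile normalization, centring on core genes (36 of 46 were measured), antigenomic or hybridization controls, a dim filter (3 of 6 arrays over background), control probe sets kept in the fit, other thresholds and each array left out. Centring on medians was added after the data were seen. Motifs were searched in Python 3.11.15. Arrays give no read depth, and their number limits the precision.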

Additional observations from a re-analysis of the deposited data

How the results depend on the processing

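With other settings the calls changed as follows, with counts higher and then lower in CD109-KO cells. Of all genes, 6410 were called higher and 4746 lower. Higher calls numbered 12927 after centring on core genes, 1117 on antigenomic and 1360 on hybridization controls, 3712 with the dim filter and 1127 at a fold change of 4. Lower calls numbered 3140 with the methods' t-test, 1386 on core genes and 2978 at a fold change of 4. Among the 9 genes, 2 higher calls became 1 with the t-test, 4 with quantile normalization, 7 on core genes, 0 on antigenomic and 0 on hybridization controls (where limma called 3 and 3 lower, among them WWTR1), 5 at a fold change of 1.5 and 0 at 4. The 2 lower calls became 1 with quantile normalization, 0 on core genes and 1 at a fold change of 4. Of cassette and upstream genes, 5 higher calls became 3 with the t-test, 15 on core genes, 0 on antigenomic and 2 on hybridization controls, 3 with the filter and 0 at a fold change of 4, and 13 lower calls became 4 on core genes and 8 at a fold change of 4. Of further targets, 9 higher calls became 17 on core genes and 5 on either control set, and 6 lower calls became 2 on core genes and 4 with quantile normalization. Of binding partners, 3 higher calls became 1 with the t-test, 7 on core genes, 1 on either control set and 1 at a fold change of 4, and 3 lower calls became 1 on core genes and 5 on either control set. On medians in place of means, chosen after the data were seen, centring on core genes gave 12699 genes higher and 1515 lower, 7 and 0 of the 9, 14 and 4 cassette and upstream genes, 17 and 2 further targets and 7 and 1 binding partners, and centring on antigenomic controls gave 553 and 7504 genes, 0 and 4 of the 9, 0 and 19 cassette and upstream genes, 2 and 10 further targets and 1 and 5 binding partners.

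Leaving out 1 array at a time gave 5906 to 6606 genes higher and 4377 to 4910 lower, 2 to 5 of the 9 higher (5 without parental sample 2) and 2 to 3 lower (3 without clone 26), 3 to 6 cassette and upstream genes higher (3 without clone 180 or parental sample 2) and 13 to 14 lower, and 2 to 3 binding partners higher.

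The sign of the log2 fold change turned for these named genes in the settings run. On the mean of the core genes it turned for WWTR1 (1.15), TEAD1 (0.87), SAV1 (0.76), NF2 (1.79), MAP4K4 (0.15), WWC3 (1.08), SIK2 (1.61), AMOTL1 (0.69), SMAD3 (1.32), RUNX2 (1.65), F3 (0.13), GADD45A (0.59), AXL (1.27) and CDC42EP3 (1.53), and on their median for WWTR1 (1.04), TEAD1 (0.76), SAV1 (0.65), NF2 (1.68), MAP4K4 (0.05), WWC3 (0.98), SIK2 (1.51), AMOTL1 (0.58), SMAD3 (1.22), RUNX2 (1.54), F3 (0.03), GADD45A (0.48), AXL (1.17) and CDC42EP3 (1.43). On the mean of the antigenomic controls it turned for TEAD3 (-0.10), TEAD4 (-0.83), ANKRD1 (-0.09), LATS2 (-0.09), MOB1B (-0.66), STK4 (-0.97), FAT4 (-0.11), WWC2 (-0.42), TP73 (-0.15), VGLL4 (-0.38), CRIM1 (-0.26) and DLC1 (-0.50), and on their median for TEAD3 (-0.33), TEAD4 (-1.06), ANKRD1 (-0.32), LATS2 (-0.31), MOB1B (-0.88), STK4 (-1.20), RASSF1 (-0.06), TAOK2 (-0.08), FAT4 (-0.33), WWC2 (-0.65), VGLL2 (-0.01), ARID1A (-0.11), TP73 (-0.38), VGLL4 (-0.61), CRIM1 (-0.49) and DLC1 (-0.72). On hybridization controls it turned for TEAD4 (-0.69), MOB1B (-0.52), STK4 (-0.83), WWC2 (-0.28), TP73 (-0.01), VGLL4 (-0.24), CRIM1 (-0.12) and DLC1 (-0.36), and with quantile normalization for TEAD4 (-0.02) and SMAD3 (0.31). Without single arrays STK4 ranged from -0.21 to 0.20. Centring moves every gene by the same amount, and other causes were not tested.

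The median of all genes moved by -0.19 with quantile normalization. No paired analysis was possible because the clone and sample numbers are not shared between the groups. The higher background of CD109-KO arrays limits what can be read of YAP1, STK3, LATS1 and TEAD2 there, and ANKRD1 was dropped by the dim filter.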
